A study of Drosophila melanogaster with 2 samples.

Results

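The mRNAs described here are those of aminoacyl-tRNA synthetases, the enzymes that join each amino acid to its tRNA, as recovered by RNA immunoprecipitation from Drosophila melanogaster ovaries. The rule reads the gene symbol and no measured value: an amino acid name followed by RS, and the suffix -m for the mitochondrial enzymes. The family itself was picked with earlier results of these data known. The rule found 33 genes among the 17720 listed in each of the 2 libraries, 15 mitochondrial and 18 cytoplasmic, and no symbol of the older Aats- form. All 33 were protein-coding in the RefSeq gene table of the Release 6 plus ISO1 MT assembly, with the same start and end. The genes of the cytoplasmic phenylalanine enzyme, alpha-PheRS and beta-PheRS, fall outside the rule through their spelling and are given apart.

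RNA immunoprecipitation recovers, with an antibody against a protein, the RNA bound to it or near it. The Lsd1-RIP library was made with an antibody against Lsd1, a histone demethylase of chromatin silencing, and the IgG-RIP library with a control antibody, which its label names as anti-GFP. Both came from 1 lysate of wild-type Oregon-R ovaries, divided between the reactions, from about 200 young females (12 hours after eclosion), with no poly(A) selection and with a kit that does not mark strand. Ovaries at that age hold germline, follicle cells and the muscle sheath, and the libraries average over all of them. There was 1 library per group, so the libraries cannot be tested against each other, and the text holds no p-value.

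Each synthetase recognises 1 amino acid, activates it with ATP and transfers it to the matching tRNAs, which then feed the ribosome. The enzymes fall into a pair of unrelated structural families, class I and class II. Mitochondria translate their own few mRNAs with their own tRNAs, and most of the synthetases they use are encoded by separate nuclear genes and imported. In some cases 1 gene serves both compartments, as for glycine and lysine in humans. In animals several cytoplasmic enzymes assemble into a multisynthetase complex with the scaffold proteins AIMP1, AIMP2 and AIMP3. A growing ovary makes large amounts of protein and of mitochondria, and needs both sets.

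The libraries held about 2494964 (Lsd1-RIP) and 2661722 (IgG-RIP) fragments on listed genes, estimated from the deposited bounds on each value. These sums are likely too low, since the estimate falls short for abundant mRNAs. In the Lsd1-RIP library the elongation factor mRNA eEF1alpha1 had 2130 FPKM but about 4043 fragments, where TyrRS had 11.3 FPKM on about 273. All 10 ovarian germline markers examined reached 1 FPKM in the Lsd1-RIP library and 8 of 10 in the IgG-RIP library, and grk, an oocyte marker, was listed at 0 in the IgG-RIP library. All 6 follicle cell markers reached it in the Lsd1-RIP library and 5 of 6 in the IgG-RIP library. All 7 muscle markers reached it in both, with a summed FPKM of 157 in the Lsd1-RIP and 173 in the IgG-RIP library. The summed germline markers stood at 273 in the Lsd1-RIP and 149 in the IgG-RIP library. Of these sums osk alone made up 165 in the Lsd1-RIP and 91.9 in the IgG-RIP library. Markers of fat body, neurons, hemocytes and testis were each at or below 0.204 FPKM in both libraries. The part of these cell types in the values below was not tested.

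FPKM is the number of fragments scaled by transcript length and by library depth, so it allows levels of different genes to be set side by side. Both libraries are precipitates, and the series has no library of the lysate before precipitation. Fewer cells that make an mRNA, less of it per cell and poorer recovery in the precipitation therefore cannot be told apart. By FPKM the mitochondrial enzymes were far below the cytoplasmic ones in both libraries. The 15 mitochondrial mRNAs had a median of 1.47 FPKM in the Lsd1-RIP library, against 10.1 for the 18 cytoplasmic mRNAs, a ratio of 0.145. In the IgG-RIP library the medians were 1.23 for mitochondrial and 8.18 for cytoplasmic enzymes, a ratio of 0.150. The ranges of the classes met only at their ends. TyrRS-m, AspRS-m and PheRS-m exceeded the lowest cytoplasmic mRNA, CysRS, in the Lsd1-RIP library, and TyrRS-m and AspRS-m did so in the IgG-RIP library. Genes are not replicates, so these medians carry no test.

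**Figure D1:**
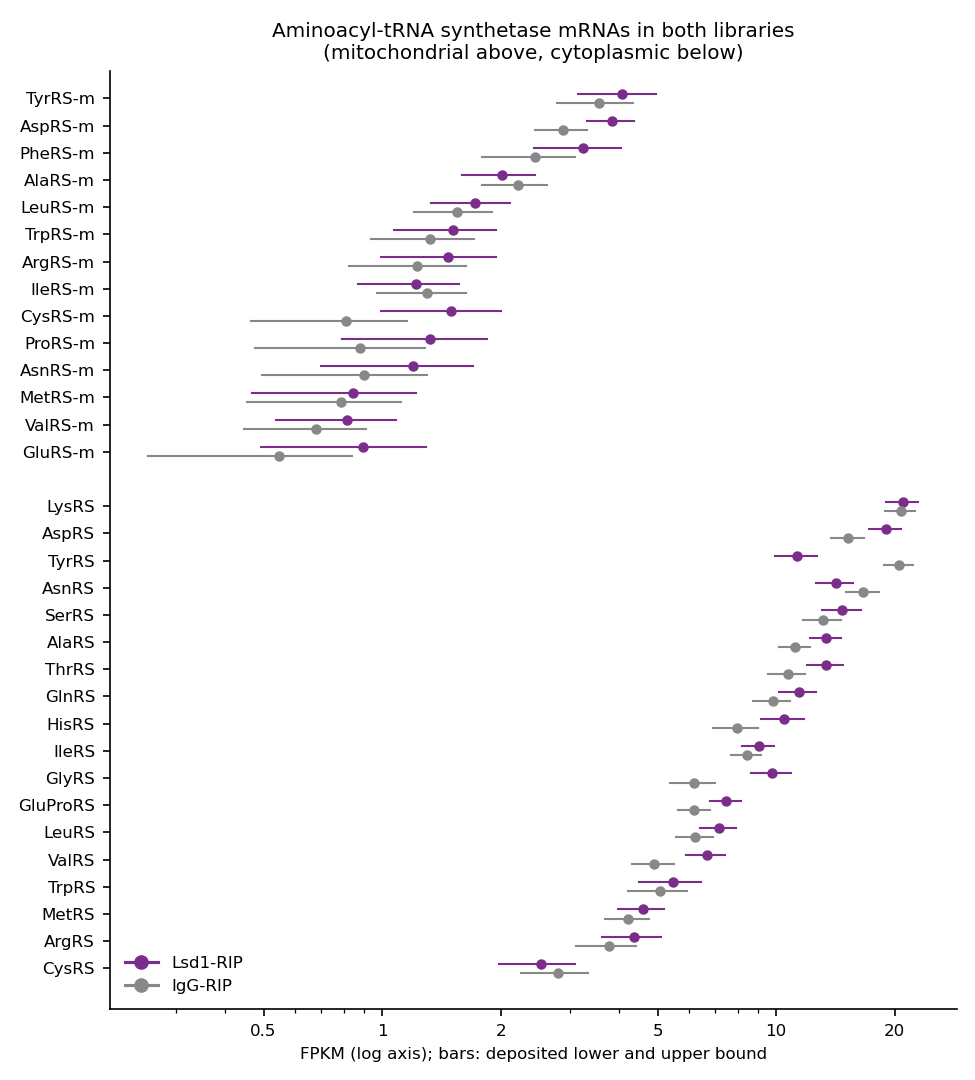
FPKM of the 32 synthetase mRNAs listed above 0, on a log axis, in the Lsd1-RIP and IgG-RIP libraries, with bars from the deposited lower to upper bound. Mitochondrial enzymes stand between 0.55 and 4.05 FPKM and cytoplasmic enzymes between 2.53 and 21.0, and TyrRS is the cytoplasmic mRNA whose points lie farthest apart.

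Among the mitochondrial enzymes, TyrRS-m had the highest level, with 4.05 FPKM in the Lsd1-RIP library and 3.55 in the IgG-RIP library. AspRS-m followed with 3.83 FPKM in Lsd1-RIP and 2.88 in IgG-RIP. PheRS-m, the single-chain phenylalanine enzyme of mitochondria, had 3.23 FPKM in Lsd1-RIP and 2.44 in IgG-RIP. These 3 stood apart from most of the class. AlaRS-m, with 2.02 FPKM in Lsd1-RIP and 2.21 in IgG-RIP, came next. The deposited bounds of TyrRS-m, AspRS-m and PheRS-m overlapped one another within each library, so their order is not set. At the low end GluRS-m had 0.892 FPKM in the Lsd1-RIP library and 0.546 in the IgG-RIP library. ValRS-m had 0.812 FPKM in Lsd1-RIP and 0.677 in IgG-RIP, and MetRS-m 0.842 in Lsd1-RIP and 0.785 in IgG-RIP. AsnRS-m, next by the mean of both libraries, had 1.20 in Lsd1-RIP and 0.897 in IgG-RIP, where CysRS-m and ProRS-m were lower still. These 4 rest on about 20 to 35 fragments each in the Lsd1-RIP library and 14 to 34 in the IgG-RIP library, and their bounds overlapped. The other members above 0, LeuRS-m, TrpRS-m, ArgRS-m, CysRS-m, IleRS-m and ProRS-m, lay between 1.22 and 1.72 FPKM in the Lsd1-RIP library and between 0.811 and 1.55 in the IgG-RIP library.

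SerRS-m, the mitochondrial serine enzyme (3R:15340667-15343218), was listed at 0 in both libraries. Its whole locus lies inside that of CG6218, named here after its values were seen, which had no FPKM above 0 in the Lsd1-RIP library either, but 3.41 FPKM, about 69.9 fragments, in the IgG-RIP library. A value of 0 in these tables can be a failed estimate, so neither an absence of SerRS-m mRNA nor a change of CG6218 can be read from it. Slimp, an insect relative of SerRS-m that does not charge tRNA, had 0.528 FPKM in the Lsd1-RIP and 0.123 in the IgG-RIP library, on about 10.1 fragments in the Lsd1-RIP and 2.22 in the IgG-RIP library, too few for a comparison.

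Among the cytoplasmic enzymes LysRS was the highest in both libraries, with 21.0 FPKM in the Lsd1-RIP and 20.7 in the IgG-RIP library. AspRS had 19.0 FPKM in Lsd1-RIP and 15.2 in IgG-RIP. TyrRS had 11.3 FPKM in the Lsd1-RIP library, in the middle of the class, and 20.5 in the IgG-RIP library, level with LysRS. AsnRS had 14.1 FPKM in Lsd1-RIP and 16.6 in IgG-RIP. In the IgG-RIP library the bounds of TyrRS (18.8 to 22.2) and LysRS (18.9 to 22.5) overlapped, while in the Lsd1-RIP library those of TyrRS (9.94 to 12.7) lay below those of LysRS (19.0 to 23.0). The lowest were CysRS, with 2.53 FPKM in the Lsd1-RIP library and 2.79 in the IgG-RIP library, and ArgRS, with 4.36 in Lsd1-RIP and 3.76 in IgG-RIP. MetRS had 4.58 FPKM in Lsd1-RIP and 4.21 in IgG-RIP, and TrpRS 5.46 in Lsd1-RIP and 5.08 in IgG-RIP. The bounds of ArgRS, MetRS and TrpRS overlapped within each library, whereas the upper bound of CysRS was below the lower bound of ArgRS in the Lsd1-RIP library only. The bifunctional GluProRS, which charges glutamate and proline from 1 polypeptide, had 7.47 FPKM in the Lsd1-RIP library and 6.20 in the IgG-RIP library. The outside pair, alpha-PheRS and beta-PheRS, which form 1 enzyme together, had 12.0 and 8.63 FPKM in the Lsd1-RIP library and 10.4 and 8.31 in the IgG-RIP library, inside the cytoplasmic range.

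For 14 mitochondrial genes the rule also found the cytoplasmic enzyme of the same amino acid, GluProRS standing as partner of both GluRS-m and ProRS-m. Leaving out SerRS-m, the mitochondrial mRNA was lower in 13 of 13 pairs in each library, with a median ratio of mitochondrial to cytoplasmic FPKM of 0.184 in the Lsd1-RIP and 0.186 in the IgG-RIP library. In 12 of the 13 pairs the deposited bounds were apart in both libraries. The exception was the cysteine pair. CysRS-m and CysRS had 1.50 and 2.53 FPKM in the Lsd1-RIP library, a ratio of 0.592 with overlapping bounds, and 0.811 and 2.79 in the IgG-RIP library, a ratio of 0.291. The asparagine pair was the most unequal: AsnRS-m over AsnRS was 0.0847 in the Lsd1-RIP and 0.0541 in the IgG-RIP library. For tyrosine the ratio was 0.359 in the Lsd1-RIP library and 0.173 in the IgG-RIP library, while TyrRS-m itself differed little between the libraries. Of the cytoplasmic genes with no -m partner, GlnRS, GlyRS, HisRS, LysRS and ThrRS, the lowest value in either library was 6.20 FPKM, of GlyRS in the IgG-RIP library. They count as cytoplasmic by symbol alone, and whether any of them also serves mitochondria was not tested.

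**Figure D2:**
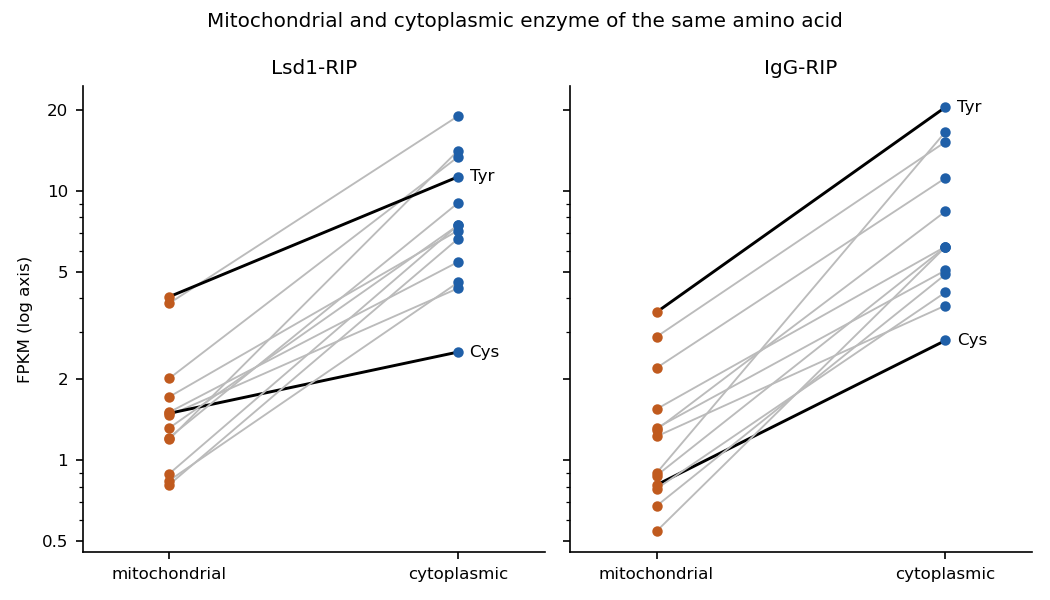
FPKM on a log axis of the mitochondrial and the cytoplasmic enzyme of the same amino acid, joined by a line, for 13 amino acid pairs in the Lsd1-RIP library and in the IgG-RIP library. Every line climbs from the mitochondrial to the cytoplasmic enzyme, the cysteine line in the Lsd1-RIP library is the flattest (ratio 0.592), and the tyrosine line ends at 11.3 FPKM in the Lsd1-RIP library and at 20.5 in the IgG-RIP library.

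The loci of the classes were of similar extent. The median locus span was 2727 nt for mitochondrial genes (range 1595 to 10949) and 3090 nt for cytoplasmic genes (range 1878 to 6256), against 2797 nt for the 6025 genes whose ratios are used below. Within pairs the mitochondrial locus was the shorter one in 9 of 13. Span includes introns, and the number of fragments per FPKM, which grows with the length of the mature transcript, separated the long loci. GluProRS (3R:23952136-23958391) had 69.7 fragments per FPKM, the highest of all, as a mean of both libraries on the log scale. AspRS (2R:12877004-12883168), with nearly the same span, had 25.7, close to AsnRS (2L:19129469-19131954), which has 24.8 on a span of 2486 nt. MetRS-m (3R:14249043-14259991), the longest locus, had 26.2, and HisRS (X:18515428-18520445) 27.0, while AspRS-m (2L:16827078-16832093) had 58.3. By this measure the classes also overlapped widely, at 20.3 to 58.3 for mitochondrial and 22.6 to 69.7 for cytoplasmic enzymes. Bounds of genes with several isoforms may hold more than counting error, so these figures are approximate.

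The comparison of Lsd1-RIP with IgG-RIP asks which mRNAs came down with the Lsd1 antibody beyond the control. It was measured as a log2 ratio, Lsd1-RIP over IgG-RIP, after 1 was added to each FPKM, a scale that understates the change of mRNAs of low FPKM. Each ratio has an interval of plus and minus 2 standard errors, taken from the deposited bounds. Such an interval reflects the fragments counted and how they were assigned to genes, and leaves out how far a repeat of the precipitation would differ. Eligible genes were those with a mean of at least 1 FPKM and the status OK in each table. All 18 cytoplasmic and 11 of 15 mitochondrial genes qualified, and MetRS-m, ValRS-m, GluRS-m and SerRS-m did not. CysRS-m, ProRS-m and AsnRS-m were below 1 FPKM in the IgG-RIP library and qualified through the Lsd1-RIP library, so mitochondrial medians are also given without the minimum. The median over all 6025 eligible genes was 0.32 (quartiles 0.13 and 0.52), and ratios are read against it.

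As a group the synthetase mRNAs had ratios below that of the typical gene, with TyrRS the lowest. The median log2 ratio was 0.15 for mitochondrial and 0.17 for cytoplasmic enzymes, a difference of -0.02, and 0.15 over the 14 mitochondrial genes above 0. Both medians were positive as deposited and negative once the all-gene median was removed, at -0.17 for mitochondrial and -0.15 for cytoplasmic enzymes. Below the all-gene median were 10 of 11 mitochondrial and 15 of 18 cytoplasmic genes, where by definition 50.0% of eligible genes lie. Without the minimum, 13 of 14 mitochondrial genes were below it. By estimated fragments scaled by depth, with nothing added, 8 of 11 mitochondrial and 16 of 18 cytoplasmic genes were below the median of that measure. Without the minimum, 10 of 14 mitochondrial genes were below the fragment median. By the FPKM ratio none of the 29 eligible members reached 2-fold either way, against 2.82% of eligible genes. In 8 of 29 the whole interval was below the all-gene median, against 12.7% of eligible genes, and in 1, GlyRS, it was above, against 17.5%. These shares are not of like precision: half-widths of the intervals had a median of 0.22 for members and 0.31 for eligible genes. A ratio below 0 was seen in 5 of 29, against 14.6%.

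**Figure D3:**
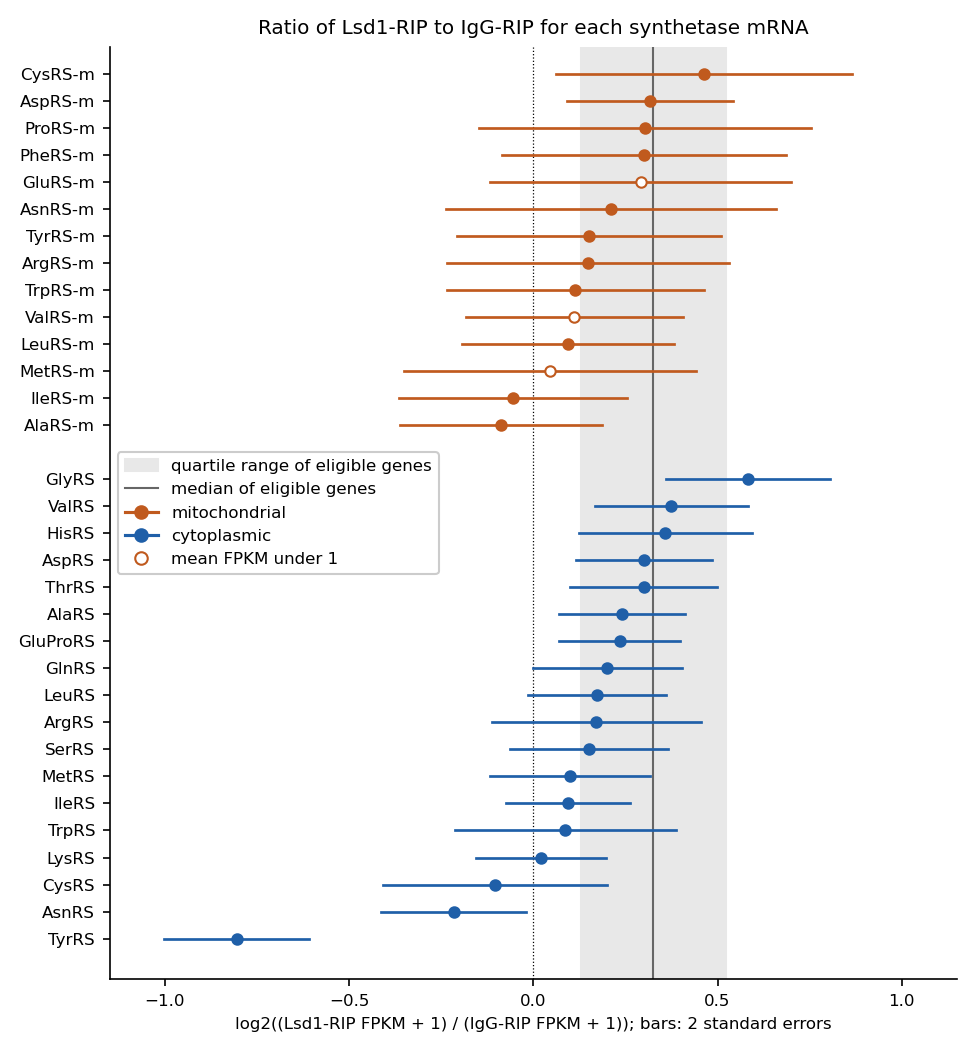
Log2 ratio of Lsd1-RIP to IgG-RIP for each of 32 synthetase mRNAs, with bars of 2 standard errors from the deposited bounds, mitochondrial enzymes above and cytoplasmic below. The line and band mark the median (0.32) and the quartile range of eligible genes (0.13 to 0.52), and open points had a mean FPKM under 1. Most points lie left of the line, and the bar of TyrRS, at -0.81, overlaps no other bar.

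TyrRS (3L:16417349-16419302) charges tyrosine tRNAs in the cytoplasm, and in humans fragments of it also act as cytokines. It had 11.3 FPKM in the Lsd1-RIP library against 20.5 in the IgG-RIP library, 1.81-fold lower. It rests on about 273 fragments in the Lsd1-RIP and 577 in the IgG-RIP library. The deposited bounds did not overlap, and TyrRS was the only member with bounds apart in the lower direction, which was so for 1.64% of eligible genes. Its log2 ratio was -0.81 (interval -1.0 to -0.61), and 50 of the 6025 eligible genes had a lower one. Genes listed at 0 in the Lsd1-RIP library, such as Nsun2, are among those 50 and in the 1.64%. A 0 there can be a failed estimate, so neither share counts measured decreases alone. By approximate fragments scaled by depth, with no pseudocount, the log2 ratio of TyrRS was -0.85. The median of that measure was 0.43 over the 5472 genes that had 20 or more fragments in both libraries. As scaled, none of the 28 members among those genes was past 2-fold by fragments, against 7.27% of them. With the all-gene median removed the ratio was -1.13, which made TyrRS the only member past 2-fold, as were 2.07% of eligible genes. It was likewise 1 of 29 members past it against genes of like span (-1.06) or of like mean FPKM (-1.07), where 1.86% and 1.98% of eligible genes were. No other annotated locus overlaps that of TyrRS. Its upstream neighbour in coordinates, GluRS-m (3L:16415292-16417177), ends 171 bases away and had 0.892 FPKM in the Lsd1-RIP and 0.546 in the IgG-RIP library, a log2 ratio of 0.29 with an interval that spanned 0 (-0.12 to 0.70).

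AsnRS and CysRS were the other cytoplasmic mRNAs with less FPKM in the Lsd1-RIP library. AsnRS had 14.1 FPKM in the Lsd1-RIP and 16.6 in the IgG-RIP library, which puts its log2 ratio at -0.22 (interval -0.41 to -0.02), with bounds that overlapped. This interval and that of TyrRS did not overlap. CysRS (2R:16143147-16145906) was at -0.10 (-0.41 to 0.20). LysRS (X:9606363-9608884), with the highest level, had almost equal values and a log2 ratio of 0.02 (-0.16 to 0.20), which left it below the typical gene. The intervals of IleRS (0.09, from -0.08 to 0.26) and MetRS (0.10, from -0.12 to 0.32) also ended below the all-gene median, that of MetRS only just, while TrpRS at 0.09 (-0.21 to 0.39) rests on fewer fragments and spanned it.

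At the other end of the cytoplasmic class stood GlyRS (3L:15095142-15097686), which charges glycine tRNAs. It had 9.78 FPKM in the Lsd1-RIP library and 6.20 in the IgG-RIP library, 1.58-fold higher, and its log2 ratio was 0.58 (interval 0.36 to 0.81). By approximate fragments GlyRS was at 0.56, or 0.13 with the median of that measure removed, so by that scale its distance from the typical gene was smaller. ValRS was at 0.37 (6.65 FPKM in the Lsd1-RIP and 4.91 in the IgG-RIP library), HisRS at 0.36 (10.5 FPKM in Lsd1-RIP and 7.94 in IgG-RIP) and AspRS at 0.30. ThrRS was also at 0.30 (13.4 FPKM in Lsd1-RIP and 10.7 in IgG-RIP). GlyRS, ValRS, HisRS, AspRS, ThrRS and GluProRS had bounds apart in the higher direction, 6 of 29 members, which was so for 36.1% of eligible genes. With TyrRS, 7 of 29 had bounds apart in some direction, against 37.8%. Between these ends AlaRS was at 0.24, GluProRS at 0.23, GlnRS at 0.20, LeuRS and ArgRS at 0.17 each and SerRS at 0.15.

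**Figure D4:**
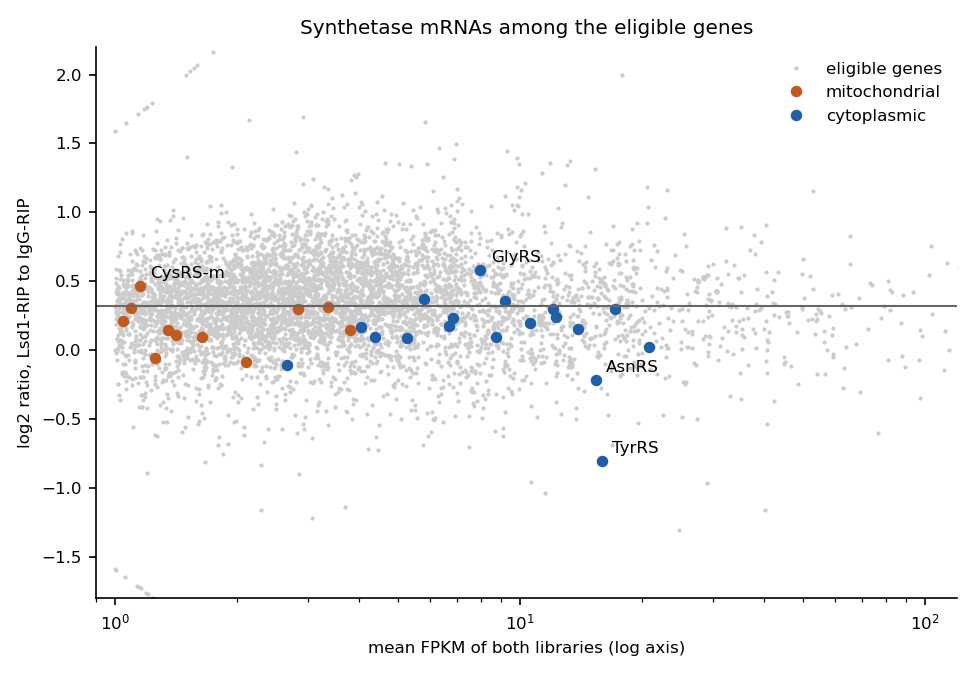
Log2 ratio of Lsd1-RIP to IgG-RIP against mean FPKM of both libraries (log axis) for eligible genes in grey and for the 11 mitochondrial and 18 cytoplasmic eligible synthetase genes in colour. The axes leave out 174 of the 6025 genes, none a synthetase, and the horizontal line is the all-gene median of 0.32. TyrRS (-0.81) lies near the lower edge of genes of its level, and 25 of the 29 synthetases, TyrRS among them, lie below the line.

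Among mitochondrial enzymes CysRS-m (2R:14159096-14161262) had the highest ratio, with 1.50 FPKM in the Lsd1-RIP and 0.811 in the IgG-RIP library, which gives 0.46 on the log2 scale (interval 0.06 to 0.86). By approximate fragments, 35.3 in the Lsd1-RIP and 22.0 in the IgG-RIP library, CysRS-m was at 0.91, outside that interval. The interval belongs to the ratio with 1 added to each FPKM, and the fragment measure adds nothing. Its plain FPKM was 1.85-fold higher in the Lsd1-RIP library. AspRS-m was at 0.32 (0.09 to 0.54), on about 210 fragments in the Lsd1-RIP library and 179 in the IgG-RIP library, the firmest value of the class. ProRS-m and PheRS-m were at 0.30 each, with intervals that spanned 0. The lowest were AlaRS-m (3L:5146098-5149852) at -0.09 (-0.36 to 0.19) and IleRS-m (3L:16100280-16103482) at -0.05 (-0.36 to 0.25), whose intervals ended below the all-gene median. LeuRS-m was at 0.09 and TrpRS-m at 0.11. No mitochondrial member had bounds apart between the libraries. Half-widths of the intervals had a median of 0.36 for mitochondrial and 0.20 for cytoplasmic enzymes. The genes above 0 had a median of 42.5 fragments in the mitochondrial and 320 in the cytoplasmic class in the Lsd1-RIP library. AsnRS-m (0.21), TyrRS-m (0.15), ArgRS-m (0.15) and, below the minimum, GluRS-m (0.29), ValRS-m (0.11) and MetRS-m (0.05) all had intervals that spanned both 0 and 0.32.

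Within amino acids the mitochondrial ratio was the higher in 7 of 13 pairs. In 3 of the 13 the interval of the difference, with no correction for the number of pairs, left out 0. For tyrosine TyrRS-m was at 0.15 and TyrRS at -0.81, a difference of 0.96 (0.55 to 1.37). For cysteine CysRS-m was at 0.46 and CysRS at -0.10, a difference of 0.57 (0.06 to 1.07). For alanine AlaRS-m was at -0.09 and AlaRS at 0.24, a difference of -0.33 (-0.65 to -0.01). The other differences ran from -0.26 for valine to 0.43 for asparagine, with intervals that held 0.

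Across all eligible genes the ratio was higher for longer loci: in 12 groups of equal size by span, the median was lowest, 0.18, in the group of 880 to 1212 nt and highest, 0.53, in that of the longest loci. Set against genes of like span, 8 of 11 mitochondrial and 15 of 18 cytoplasmic genes were below the median of their group. The median difference was -0.09 for mitochondrial and -0.15 for cytoplasmic enzymes, and TyrRS was at -1.06. Within the cytoplasmic class longer loci had higher ratios (Spearman rho 0.52, 18 genes), and within the mitochondrial class lower ones (rho -0.55, 14 genes). These are descriptions over few genes of 2 shared libraries, and the mitochondrial ones include MetRS-m, ValRS-m and GluRS-m, below the minimum. Of the long mitochondrial loci, MetRS-m on 10949 nt was at 0.05 (-0.35 to 0.44), on about 20.3 fragments in the Lsd1-RIP library. AspRS-m on 5016 nt was at 0.32 (0.09 to 0.54), and these intervals overlapped. Against mean FPKM neither class had a trend (rho 0.04 for mitochondrial and -0.07 for cytoplasmic genes).

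**Figure D5:**
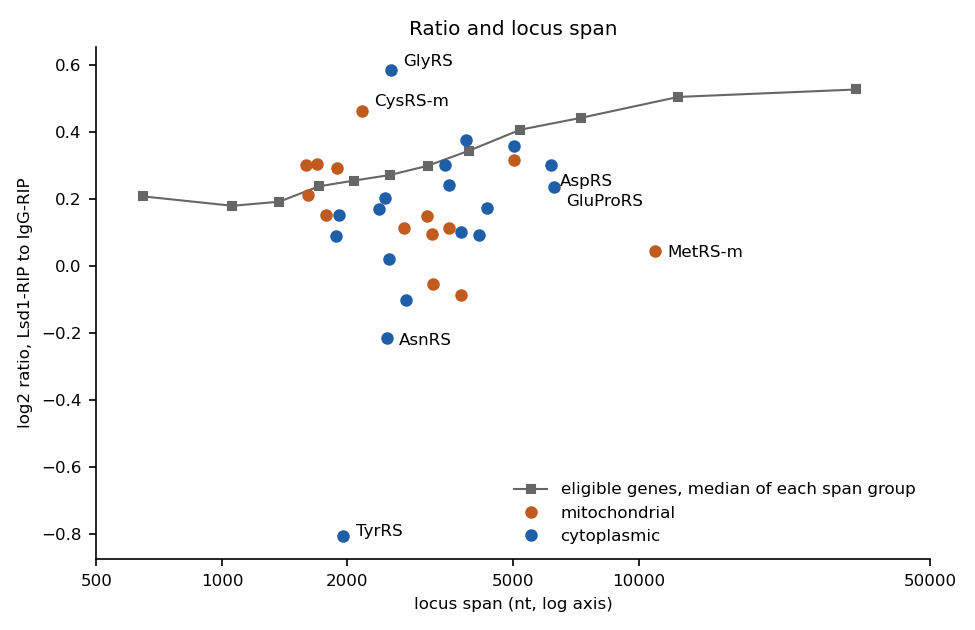
Log2 ratio of Lsd1-RIP to IgG-RIP against locus span (nt, log axis) for the mitochondrial and cytoplasmic synthetase genes above 0, with squares for the median of eligible genes in each of 12 span groups. The squares climb to 0.53 at long spans, and TyrRS (-0.81), AsnRS (-0.22) and MetRS-m (0.05) lie below the squares of their span.

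By structural family, the 9 cytoplasmic class I enzymes had a median log2 ratio of 0.10 and the 8 class II enzymes one of 0.27, with GluProRS, which holds both kinds of catalytic domain, in neither. The ranges overlapped, from -0.81 (TyrRS) to 0.37 (ValRS) in class I and from -0.22 (AsnRS) to 0.58 (GlyRS) in class II. In mitochondria the 6 eligible class I enzymes had a median of 0.13 and the 5 class II enzymes one of 0.30. Cytoplasmic levels differed as well: class I had medians of 6.65 FPKM in the Lsd1-RIP and 5.08 in the IgG-RIP library, and class II 13.8 in the Lsd1-RIP and 12.2 in the IgG-RIP library. The 8 cytoplasmic enzymes whose counterparts belong to the mammalian multisynthetase complex (ArgRS, AspRS, GlnRS, GluProRS, IleRS, LeuRS, LysRS and MetRS) lay close together, from 0.02 to 0.30 with a median of 0.17. All 8 ratios were below the all-gene median, but the whole interval was below it in only 3 of them. The other 10 ran from -0.81 to 0.58 with a median of 0.20.

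Overlapping annotation touches 11 of the 15 mitochondrial and 6 of the 18 cytoplasmic loci, and without strand the fragments of overlapping genes cannot be separated. The partners named here were singled out after their values were seen. AspRS shares 3137 bases with Nmda1, whose value was 0 in the Lsd1-RIP library and 2.39 FPKM, about 54.0 fragments, in the IgG-RIP library. With the fragments of AspRS and Nmda1 added together the log2 ratio was 0.16, against 0.34 for AspRS alone. That sum rests on the 0 of Nmda1, which can be a failed estimate, so no smaller ratio for AspRS is read from it. HisRS lies wholly inside the locus of Bx, whose value was 0 in both libraries. ArgRS-m shares 874 bases with mRpS9, a mitochondrial ribosomal protein gene with 13.6 FPKM in the Lsd1-RIP and 11.9 in the IgG-RIP library, far above ArgRS-m at 1.47 in Lsd1-RIP and 1.23 in IgG-RIP. CysRS-m shares 339 bases with CG13016, and their summed fragments gave 0.46, close to the all-gene median of 0.43 for that measure. Over the members free of overlap the median log2 ratio was 0.11 for 3 mitochondrial and 0.14 for 12 cytoplasmic genes.

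The genes around tRNA charging came from lists, and beside the highest and lowest of each, a few were named for their role. On the scaffold list, 6 eligible genes had a median log2 ratio of 0.11. Of the complex's scaffolds AIMP1 was at -0.11 (8.93 FPKM in the Lsd1-RIP and 9.71 in the IgG-RIP library), AIMP2 at 0.22 and AIMP3 at 0.35, each with an interval that spanned 0. The elongation factor subunits on the list were eEF1gamma at 0.23, eEF1beta at -0.09 and eEF1delta at 0.00. By fragments eEF1gamma was at -0.38, but it had 227 FPKM in the Lsd1-RIP and 194 in the IgG-RIP library. Estimated fragments fall short for such abundant mRNAs, so that value is not read as a change of sign. alpha-PheRS was at 0.19 (interval -0.03 to 0.42) and beta-PheRS at 0.05 (-0.19 to 0.28). Of the subunits of the amidotransferase that makes mitochondrial glutaminyl-tRNA, GatA was at 0.35, GatC at 0.29 and GatB at -0.10, all with intervals that spanned 0. The list they belong to, other charging and editing factors, had a median of 0.27 over 5 eligible of 7 genes found. That median is the value of CG2246, whose role in tRNA charging is uncertain. None of these genes reached 2-fold, where 2.12% of eligible genes were past it in the higher and 0.697% in the lower direction. The lower share includes genes listed at 0 in the Lsd1-RIP library.

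For tRNA processing and modification, 17 of 28 listed symbols were found and 16 were eligible, with a median of 0.21. Of the 16, 12 were below the all-gene median. The 16 and the 12 both count Nsun2, whose ratio rests on a 0 that can be a failed estimate. For the 15 eligible genes above 0 in both libraries the median was 0.22. RIOK1, at 0.33, is also among the 16, though its role in tRNA modification is uncertain. Rpp20, a subunit gene of RNase P, was 2-fold higher, with 11.8 FPKM in the Lsd1-RIP and 5.18 in the IgG-RIP library and a log2 ratio of 1.05 (0.71 to 1.39). Its locus overlaps that of CG33932, whose value was 0 in the Lsd1-RIP and 1.1 FPKM in the IgG-RIP library. Nsun2, a tRNA methyltransferase gene, had a listed value of 0 in the Lsd1-RIP library and 5.86 FPKM, about 216 fragments, in the IgG-RIP library, and since a 0 can be a failed estimate no fold is given. Mitochondrial translation factors had a median of 0.22 over 6 eligible of 8 genes, from mEFTu2 at -0.28 to mEFTs at 0.57. Cytoplasmic elongation and termination factors had one of 0.23 over 5 eligible of 6, from eEF5 at -0.11 to eEF1alpha1 at 0.80. The amino acid starvation list had a median of 0.39 over 11 eligible of 13 genes, with 3 below the all-gene median. Its eligible loci are long, with a median span of 5615 nt, and eligible genes of 4490 to 6066 nt had a median ratio of 0.41. Set against genes of like span, gene by gene, the median difference of the list was 0.07. In it Iml1, a subunit gene of the GATOR1 complex that restrains TORC1, had 4.52 FPKM in the Lsd1-RIP and 1.78 in the IgG-RIP library, a log2 ratio of 0.99 (0.78 to 1.20). Gcn2, the kinase that senses uncharged tRNA, was at 0.42, crc, the fly ATF4 whose mammalian counterpart activates synthetase genes, at 0.39, and REPTOR-BP, on under 13 fragments per library, at -0.43.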

How the data were processed

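The authors deposited 1 gene table per library. Its values are FPKM with a lower and an upper bound and a status for each gene, per the file headers. Cufflinks, SAMtools 0.1.18.0, Bowtie2 2.0.6.0 and build dm6 are listed in the submitters' processing notes, without their roles. Which annotation and Cufflinks options were used is not given in the sources used here. Locus starts in the tables count from 0, since all 33 members start 1 base later in the RefSeq table, and are printed counted from 1.

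The tables were joined on gene number and locus in Python 3.11.15 with pandas 2.3.3. Bounds were taken as 2 standard deviations. If counting alone set them, the fragments behind a value are the squared quotient of FPKM and its standard deviation. Of 7225 estimates between 0.5 and 30, 41.7% were within 0.02 of a whole number. The depth ratio for fragments, 0.856, is the median over 892 genes that were so in both libraries. The measures were tested on simulated data.

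With 1 library per group there was no test between groups. The rule for named genes took, in each class, the 4 highest and 4 lowest ratios and FPKM and every pair of 1 amino acid. Members and gene lists were chosen with earlier results of these data known, as were the structural families and the complex. Alternatives were pseudocounts of 0.1 and 5, centring, TPM, fragments, correction for span or level, other minimums, and leaving out members at 0, with overlaps or without a partner.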

Additional observations from a re-analysis of the deposited data

How the results depend on the processing

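The difference between mitochondrial and cytoplasmic median log2 ratios, -0.02, ran from -0.04 to 0.06 over 12 alternatives, so its sign is not set. The median was 0.15 for mitochondrial enzymes, from -0.17 to 0.26 over 11 alternatives, and 0.17 for cytoplasmic enzymes, from -0.15 to 0.22 over 13. For the cytoplasmic median the values that moved beyond a typical member's interval were -0.15 on centring at the all-gene median, -0.15 with the median of genes of like locus span removed and -0.14 with that of genes of like mean FPKM removed. By construction these are distances from other genes. Under the same 3 the number of members past 2-fold was 1, TyrRS, against 0 as deposited and under the other alternatives. Of eligible genes, 2.07%, 1.86% and 1.98% were past it under these 3, in the same order. TyrRS was negative in all 11 alternatives, from -1.13 to -0.65. AsnRS, CysRS, AlaRS-m and IleRS-m were also negative in each of theirs, and GlyRS, ValRS and CysRS-m positive. Of 294 member values under alternatives, 62 left the member's interval, 61 of them in those 3 settings and 1, CysRS-m, by fragments. At a minimum of 5 FPKM no mitochondrial member was left, so no mitochondrial value is given there. The ratio of mitochondrial to cytoplasmic median FPKM ran from 0.149 to 0.187 in the Lsd1-RIP and from 0.161 to 0.196 in the IgG-RIP library. The correction for level, the run without TyrRS and these level alternatives were chosen after seeing the data. No paired analysis was possible because there is 1 library per group. Depth limits the mitochondrial values most, with 14 to 35 fragments per library behind the 4 lowest.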
